A study of Homo sapiens with 6 samples.

Results

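Semaphorins, plexins and neuropilins were followed in LNCaP, a human prostate cancer cell line that responds to androgen. The cells had received a small interfering RNA (siRNA) against the non-coding RNA PCARNEQ, or one against EGFP, a jellyfish-derived fluorescent protein gene that human cells lack. The members were chosen by gene symbol alone: every symbol that begins with SEMA and a digit or with PLXNA, PLXNB, PLXNC or PLXND, plus NRP1 and NRP2. This gave 20 semaphorin genes with 45 probe sets, 9 plexin genes with 25 probe sets and 2 neuropilin genes with 15 probe sets, 85 of the 54613 probe sets tested and 31 of 19775 genes. The family was picked with results of the same comparison known, among them the large change of SEMA3C, so the calls below describe the members and are not independent evidence about them. Each treatment was measured on 3 single-colour Affymetrix arrays, called siPCARNEQ arrays 1 to 3 and siEGFP arrays 1 to 3, and nothing in the labels says that they came from separate cultures, so p-values measure no more than how these 6 arrays vary, possibly for technical reasons. The sources used here give no dose or duration of the siRNA, and no level of PCARNEQ itself is reported.

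Semaphorins are guidance proteins that share a sema domain. Class 3 members are secreted, classes 4 to 6 span the membrane and class 7 is anchored to it by a lipid. Plexins are their receptors and carry a cytoplasmic domain that acts on small GTPases, while neuropilins are co-receptors that most class 3 semaphorins need and that also bind vascular endothelial growth factors. First described in growing axons, the family also acts in epithelia and tumours, and SEMA3C has been linked to growth and invasion of prostate cancer cells.

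All promoter windows of the 2 secreted semaphorins that rose, SEMA3C and SEMA3F, are shown first, so that their alternative starts can be compared. Each line gives the 250 bases before a RefSeq transcription start (GRCh38.p14), 5′ to 3′ on the gene's strand, in lower case with matches to GGGCGG on either strand, the core of a GC box, in capitals.
SEMA3C, downstream start, chr7:80919052-80919301, minus strand: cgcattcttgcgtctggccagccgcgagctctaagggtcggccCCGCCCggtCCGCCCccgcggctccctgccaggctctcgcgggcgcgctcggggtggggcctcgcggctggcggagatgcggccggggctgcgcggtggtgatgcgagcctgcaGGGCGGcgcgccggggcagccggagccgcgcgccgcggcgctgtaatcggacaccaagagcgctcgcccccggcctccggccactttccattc
SEMA3C, upstream start, chr7:80922390-80922639, minus strand: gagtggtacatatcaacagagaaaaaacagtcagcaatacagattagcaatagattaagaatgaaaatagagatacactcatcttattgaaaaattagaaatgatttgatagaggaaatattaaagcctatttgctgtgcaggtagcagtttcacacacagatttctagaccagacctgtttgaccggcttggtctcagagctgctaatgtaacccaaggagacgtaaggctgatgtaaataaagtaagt
SEMA3F, first start, chr3:50154808-50155057, plus strand: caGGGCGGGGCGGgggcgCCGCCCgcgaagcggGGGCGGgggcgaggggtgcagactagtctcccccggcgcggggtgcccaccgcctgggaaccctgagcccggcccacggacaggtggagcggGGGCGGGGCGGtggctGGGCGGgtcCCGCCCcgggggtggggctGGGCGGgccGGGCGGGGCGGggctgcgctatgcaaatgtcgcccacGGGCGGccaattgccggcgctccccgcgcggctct
SEMA3F, second start, chr3:50155074-50155323, plus strand: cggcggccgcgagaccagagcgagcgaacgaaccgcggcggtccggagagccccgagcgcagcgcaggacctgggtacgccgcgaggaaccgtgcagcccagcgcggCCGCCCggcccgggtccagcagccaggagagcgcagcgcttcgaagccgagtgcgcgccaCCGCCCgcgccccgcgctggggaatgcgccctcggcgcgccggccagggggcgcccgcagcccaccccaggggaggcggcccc
SEMA3F, last start, chr3:50158769-50159018, plus strand: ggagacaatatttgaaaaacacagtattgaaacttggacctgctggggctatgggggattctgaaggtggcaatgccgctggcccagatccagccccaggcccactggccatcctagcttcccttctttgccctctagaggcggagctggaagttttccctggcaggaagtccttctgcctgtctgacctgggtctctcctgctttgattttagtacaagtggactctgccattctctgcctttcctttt

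The SEMA3C window at the downstream start was 77.6% G or C with 39 CpG pairs and 3 GC-box matches, while the window at its upstream start was 36.4% G or C with 2 CpG pairs and 0 matches. The first SEMA3F window was 82.0% G or C with 12 matches, some of them overlapping, the second 80.4% with 2 matches and the last 52.8% with 0. Both genes thus had a GC-rich and a less GC-rich start. Windows of the other members whose brightest probe set rose, not printed, ranged from 52.4% for SEMA4D and for 1 of 2 SEMA4G windows to 82.8% for PLXNA3. The 4 SEMA4A windows held 0, 0, 1 and 0 matches, that of SEMA4D 1, those of SEMA4G 2 and 0, and those of SEMA4F, PLXNA3 and PLXNB3 2 each. Windows were found for 27 of the 31 genes, 48 windows in all, and 30 of them (62.5%) held GGGCGG, against 42.6% of all 35116 windows. Of 4 other motifs searched on both strands, TGTTTAC, a forkhead motif, lay in 1 member window (2.08%, against 2.98% of all windows). AGATAA lay in 3 (6.25%, against 9.17%) and is the motif of the GATA factor family. AGAACA, the hexamer of androgen response elements, lay in 0 member windows (against 12.4% of all windows), and TATAAA, the TATA box, in 1 (2.08%, against 10.7%). Motifs were matched in these windows as letters only, windows of 1 gene can overlap, and the probe sets do not tell which start was used.

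Values are log2 of the deposited intensity, and a change is siPCARNEQ minus siEGFP. Rose and fell are used for probe sets with an adjusted p below 0.05 in limma's fit over all 54613 probe sets (Benjamini-Hochberg). Levels of different probe sets are not comparable, and a level under the array median of 7.03 was not shown to be above background. Of the 85 member probe sets, 38 had a mean above 7.03. Array 1 stood apart from arrays 2 and 3 in each group. Differences in log2 intensity between array 1 and the others had an SD over all probe sets of 0.371 to 0.373 (siPCARNEQ) and 0.232 to 0.239 (siEGFP), against 0.136 and 0.129 between array 2 and array 3. RNA quality, read as the log2 excess of the 3′ over the 5′ control of ACTB, also set siPCARNEQ array 1 apart, at 1.84 against 0.63 to 0.78 elsewhere. Counts without this array are given below, and the part of RNA quality in the results was not tested.

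Ligands carried most of the rises. Of 45 semaphorin probe sets, 11 rose (24.4%), 0 fell and 34 did not pass, where over all probe sets 9.92% rose and 8.61% fell (at an unadjusted p below 0.05 in limma, 14 semaphorin probe sets were higher and 2 lower). Of 40 plexin and neuropilin probe sets, 2 rose (5.0%), 1 fell (2.5%) and 37 did not pass. Signal differed too: 26 of the 45 semaphorin but 12 of the 40 receptor probe sets had a mean above the array median. A fit on such probe sets alone gave 11 rises of 26 and 3 of 12, where 18.2% of all of them rose. The difference between ligands and receptors was not tested. By the brightest probe set of each gene, 6 of 20 semaphorins rose and 0 fell, and 2 of 11 receptors rose and 1 fell, against 13.1% and 10.6% of all 19775 genes. The count of semaphorin probe sets that rose was 4 without siEGFP array 3, and 6 without siEGFP array 2 or siPCARNEQ array 3. Of all probe sets 5.67%, 5.58% and 7.26% rose in these fits, in that order. The count was 14 with arrays 2 and 3 only, where 16.6% of all rose. It was 0 once arrays 2 and 3 were merged into their mean, which leaves 2 values a group and where 1.99% of all probe sets rose. Among members only PLXNA3 passed there. The count of receptor probe sets that rose was 1 without siPCARNEQ array 3 or any of the siEGFP arrays, where 5.58% to 7.52% of all rose. Without siPCARNEQ array 1, 12 semaphorin probe sets rose and 1 fell, and 3 receptor probe sets rose and 1 fell. In that fit 13.1% of all probe sets rose and 11.2% fell.

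By the brightest probe set of every gene, the median change was near 0 in both roles. On probe sets above the array median alone, it was 0.14 over 15 semaphorin genes and 0.31 over 7 receptor genes. The median over all such probe sets was -0.004. The median change over the 20 semaphorin genes was -0.02 (quartiles -0.15 and 0.43), and it was 0.07, -0.04 and 0.05 between arrays of the same number. Over the 11 receptor genes the median was 0.06 (quartiles -0.12 and 0.35), and 0.02, 0.07 and 0.17 by number. Over all genes it was -0.01 (quartiles -0.15 and 0.17). The ligand rises were thus in a subset, SEMA3C, SEMA3F, SEMA4A, SEMA4D, SEMA4F, SEMA4G and 2 of 5 probe sets of SEMA6A. In 21 member probe sets (24.7%) every siPCARNEQ array lay above every siEGFP array, and in 10 (11.8%) every one lay below, against 18.6% and 19.1% of all probe sets.

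**Figure D1:**
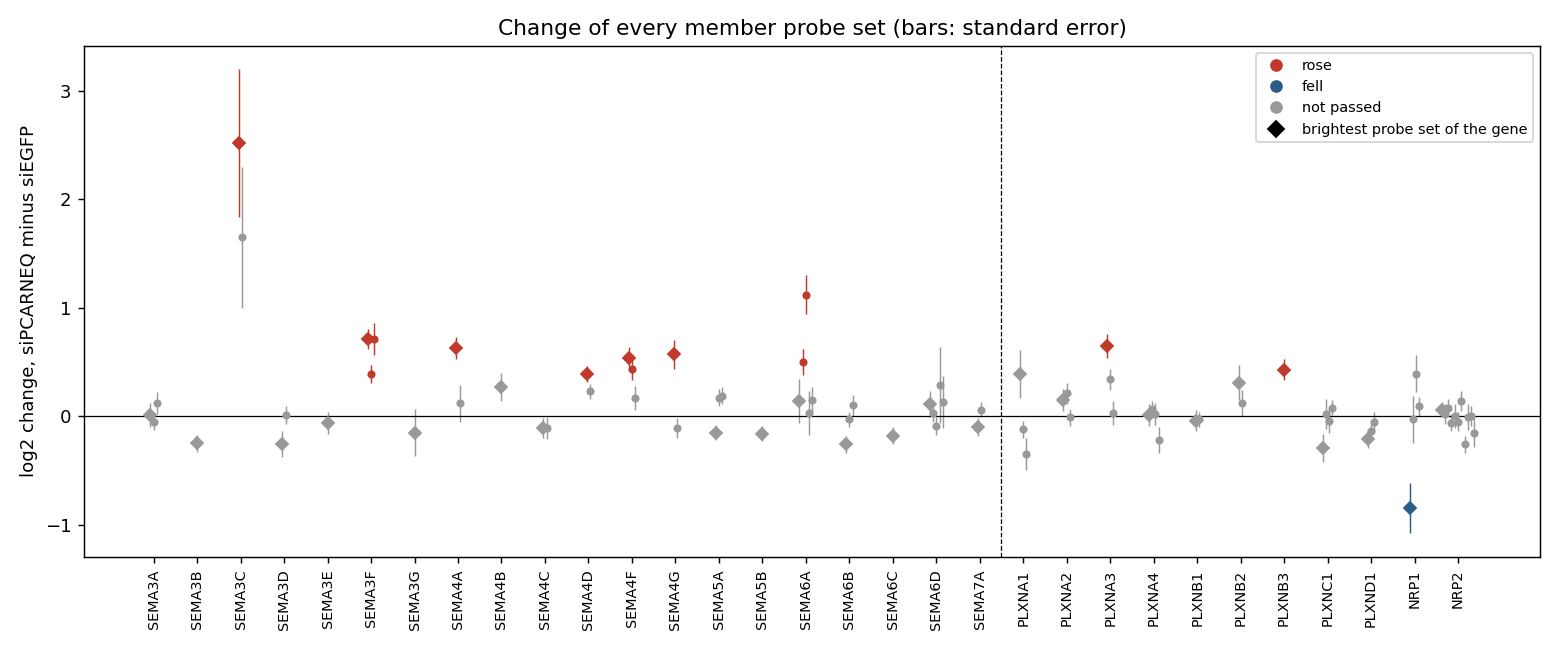
Log2 change (siPCARNEQ minus siEGFP, y axis) of all 85 member probe sets, grouped by gene on the x axis, with semaphorins left and receptors right of the dashed line. Points are limma estimates with standard errors (n = 3 arrays per group), diamonds mark the brightest probe set of a gene, and colour marks the call; SEMA3C reaches 2.52 and 1.65, and NRP1 alone has a probe set that fell.

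SEMA3C, a secreted class 3 semaphorin, had the largest change of the family. Its brighter probe set, 203789_s_at, read 10.46, 11.41 and 11.33 in siPCARNEQ arrays 1 to 3 and 6.85, 9.37 and 9.43 in siEGFP arrays 1 to 3. All 3 siPCARNEQ arrays were above all 3 siEGFP arrays, and array 1 was the lowest of its group in both. It rose by 2.52 on the log2 scale (SE 0.68, 95% interval 0.91 to 4.13, a fold of 5.74, limma adjusted p = 0.0439, or 0.00618 when arrays were blocked by their number). The differences between arrays of the same number were 3.61, 2.05 and 1.90. Without siEGFP array 1 the rise was 1.67 (adjusted p = 0.0201), and without siPCARNEQ array 2 or 3 or siEGFP array 2 or 3 the adjusted p was 0.118, 0.115, 0.0644 and 0.0584.

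The other SEMA3C probe set, 203788_s_at, read 7.13, 9.15 and 8.96 in siPCARNEQ and 5.62, 7.23 and 7.45 in siEGFP. The groups overlapped, since siPCARNEQ array 1 lay below siEGFP arrays 2 and 3. Its change was 1.65 (SE 0.65, limma adjusted p = 0.14), and it passed when arrays were blocked by number (adjusted p = 0.00113), the same-number differences being 1.51, 1.93 and 1.51. Both probe sets were therefore higher in each siPCARNEQ array than in the siEGFP array of the same number. The mean of both had a change of 2.08 and did not pass (limma adjusted p = 0.0527 over genes).

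SEMA3F, a secreted semaphorin that signals through NRP2 and is known as a repellent for tumour and endothelial cells, was the other class 3 member to rise, and it did so in all 3 of its probe sets. Probe set 35666_at read 9.84, 9.62 and 9.68 in siPCARNEQ and 8.89, 9.12 and 9.01 in siEGFP. It rose by 0.71 (SE 0.09, 95% interval 0.48 to 0.93, a fold of 1.63, limma adjusted p = 0.00285), with no overlap between groups. The other 2 lost the call without single arrays. 209730_at rose by 0.39 (SE 0.08) from 7.54 ± 0.02 to 7.93 ± 0.12 (SD, n = 3), with a limma adjusted p of 0.0552 to 0.0767 without siPCARNEQ array 3 or any 1 siEGFP array. 206832_s_at rose by 0.71 (SE 0.15) from 6.24 ± 0.30 to 6.95 ± 0.09 (SD, n = 3), both means under the array median, with an adjusted p of 0.0594, 0.0503 and 0.0699 without siPCARNEQ array 2, siPCARNEQ array 3 or siEGFP array 3. Agreement in sign across 3 probe sets of 1 gene is not 3 independent measurements, since they share the arrays.

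The other 5 class 3 semaphorins did not pass. SEMA3B, which like SEMA3F is encoded on the short arm of chromosome 3, was at 6.43 ± 0.10 in siPCARNEQ and 6.68 ± 0.05 in siEGFP (SD, n = 3), a change of -0.25 (SE 0.08, limma adjusted p = 0.0744) with all siPCARNEQ arrays lower. A probe set shared between SEMA3B and a microRNA gene, which is not counted here, had a change of 0.11 (SE 0.10). SEMA3A, SEMA3D and SEMA3E, guidance cues of axons and vessels, had group means of 4.82 or lower in all 6 of their probe sets, with changes of -0.26 to 0.12. SEMA3G, an endothelial class 3 semaphorin, was at 6.91 ± 0.36 and 7.06 ± 0.33 (SD, n = 3), with overlapping groups and a change of -0.15 (SE 0.22).

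Class 4 semaphorins, which span the membrane, were the class with the most risen genes: 4 of 6 rose and 0 fell by their brightest probe set, beside 13.1% and 10.6% of all genes, and the class median was 0.46 (0.45, 0.38 and 0.49 by array number). Of the 12 class 4 probe sets, 11 had a mean above the array median. Of all such probe sets, 18.2% rose and 16.7% fell in a fit on them alone. SEMA4A, known from T cells and the retina, read 10.25, 9.92 and 9.99 in siPCARNEQ and 9.40, 9.42 and 9.45 in siEGFP (219259_at). The siEGFP arrays were within 0.05 of one another and the groups were apart. It rose by 0.63 (SE 0.10, a fold of 1.55, limma adjusted p = 0.00519), while its dimmer probe set 234072_at had a change of 0.12 (SE 0.17, adjusted p = 0.719).

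SEMA4D, the ligand of PLXNB1, read 9.05, 9.00 and 9.01 in siPCARNEQ and 8.62, 8.69 and 8.58 in siEGFP (203528_at). It rose by 0.39 (SE 0.07, a fold of 1.31, limma adjusted p = 0.00918), with differences of 0.43, 0.31 and 0.43 between arrays of the same number. Its other probe set did not pass, at 0.23 (SE 0.07, adjusted p = 0.0709), with no overlap between groups either. Without siEGFP array 3, SEMA4D had an adjusted p of 0.0501.

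SEMA4F, a neuronal semaphorin also described in prostate cancer, read 8.83, 8.65 and 8.75 in siPCARNEQ and 8.37, 8.08 and 8.19 in siEGFP (228660_x_at). It rose by 0.54 (SE 0.10, a fold of 1.45, limma adjusted p = 0.0101), and 210124_x_at rose by 0.44 (SE 0.11, adjusted p = 0.0334), a call lost without siPCARNEQ array 2, siEGFP array 2 or siEGFP array 3 (adjusted p of 0.0951 to 0.12). Probe sets with this suffix may also match other transcripts. The remaining one, 208124_s_at, had a change of 0.17 (SE 0.11) with overlapping groups.

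SEMA4G read 7.57, 7.11 and 7.30 in siPCARNEQ and 6.91, 6.67 and 6.70 in siEGFP (219194_at), so that only siPCARNEQ lay above the array median. It rose by 0.57 (SE 0.13, limma adjusted p = 0.0245), but lost the call without siPCARNEQ array 3 (adjusted p = 0.0659) or siEGFP array 2 or 3 (0.1 and 0.0972). Its other probe set, 203483_at, differed in sign, with a change of -0.11 (SE 0.09, adjusted p = 0.471), and the mean of both did not pass (0.23, adjusted p = 0.126 over genes).

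The remaining class 4 members did not pass. SEMA4B was at 9.43 ± 0.17 in siPCARNEQ and 9.17 ± 0.18 in siEGFP (SD, n = 3), a change of 0.27 (SE 0.13, limma adjusted p = 0.211), and passed when blocked by array number (adjusted p = 0.0426). SEMA4C, a ligand of PLXNB2, had a change of -0.11 in both of its probe sets (SE 0.09 and 0.10), and the interval of the brighter one, -0.33 to 0.11, leaves room for a small change in either direction.

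**Figure D2:**
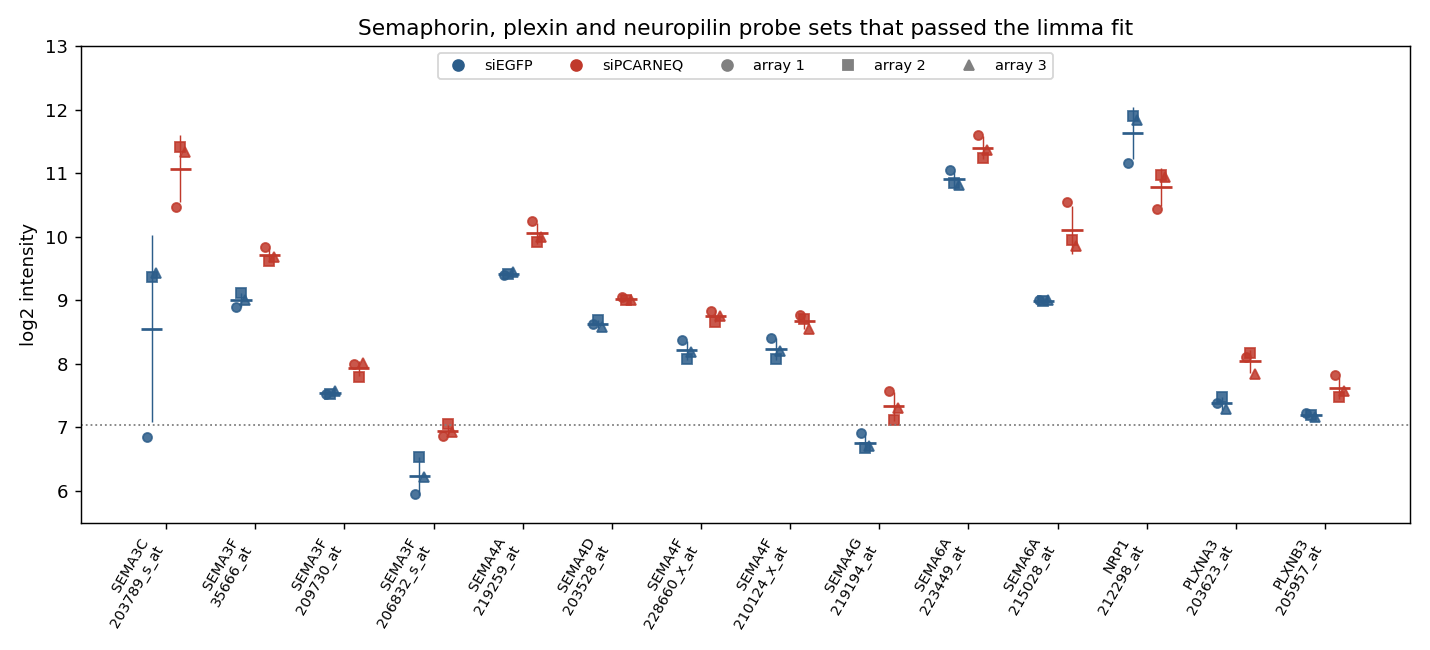
Log2 intensity (y axis) of the 14 member probe sets that passed, on each of the 6 arrays. Symbols give the array number, horizontal bars the group mean and vertical bars the SD (n = 3), and the dotted line is the array median of 7.03; in all 14 the groups do not overlap, and the siEGFP arrays of SEMA3C span 6.85 to 9.43.

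SEMA6A, a membrane-spanning ligand of PLXNA2 and PLXNA4, gave different answers by probe set. 215028_at read 10.55, 9.94 and 9.86 in siPCARNEQ and 9.01, 8.98 and 9.00 in siEGFP. The siEGFP arrays agreed within 0.03 and siPCARNEQ array 1 was the highest. It rose by 1.12 (SE 0.18, 95% interval 0.71 to 1.53, a fold of 2.17, limma adjusted p = 0.00528), and by 0.91 with arrays 2 and 3 only. 223449_at rose by 0.50 (SE 0.12, adjusted p = 0.0248), a call lost without siPCARNEQ array 3, siEGFP array 2 or siEGFP array 3 (adjusted p of 0.0628 to 0.102). The brightest probe set, 225660_at, read 12.12, 11.39 and 11.38 in siPCARNEQ and 11.63, 11.42 and 11.42 in siEGFP, so the groups differed at array 1 alone, and its change was 0.14 (SE 0.20, adjusted p = 0.694). 220454_s_at had a change of 0.03 (SE 0.20), with overlapping groups. Where each probe set lies in the transcript was not analysed here.

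None of the other semaphorins passed. SEMA6B (-0.26, SE 0.08, limma adjusted p = 0.0739 in 224182_x_at) and SEMA6C (-0.18, SE 0.08, adjusted p = 0.179) were lower in every siPCARNEQ array than in every siEGFP array. SEMA6B probe sets 220778_x_at and 223567_at had changes of -0.03 and 0.10, with overlapping groups. SEMA5A, a ligand of PLXNB3, had a change of -0.15 in its brightest probe set and 0.17 and 0.19 in the other 2, each with no overlap and none passing. SEMA5B had a change of -0.16 (SE 0.07). SEMA6D ranged from -0.09 to 0.29 over 5 probe sets, and its widest-spread probe set, 226492_at, was at 6.10 ± 0.63 and 5.81 ± 0.46 (SD, n = 3). SEMA7A, the lipid-anchored ligand of PLXNC1, was at 8.15 ± 0.09 and 8.24 ± 0.07 (SD, n = 3), a change of -0.10 (SE 0.08).

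Among receptors, PLXNA3, an X-linked plexin that pairs with neuropilins, had the highest change. It read 8.11, 8.17 and 7.84 in siPCARNEQ and 7.39, 7.48 and 7.29 in siEGFP (203623_at), with no overlap. It rose by 0.65 (SE 0.11, 95% interval 0.40 to 0.91, a fold of 1.57, limma adjusted p = 0.00667). 1553139_s_at had a change of 0.34 (SE 0.10, adjusted p = 0.0679, or 0.046 when blocked by array number), and the dim 1567519_at a change of 0.03 (SE 0.11).

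PLXNB3, also X-linked, read 7.82, 7.48 and 7.57 in siPCARNEQ and 7.22, 7.19 and 7.17 in siEGFP in its only probe set. It rose by 0.43 (SE 0.10, a fold of 1.35, limma adjusted p = 0.024). The call was lost without siPCARNEQ array 3 (adjusted p = 0.0565) and without siEGFP array 1, 2 or 3 (0.0637, 0.0903 and 0.0927), with changes of 0.42 to 0.46.

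The other plexins did not pass. PLXNA1 was higher in all siPCARNEQ arrays in its brightest probe set, 10.20 ± 0.48 against 9.80 ± 0.07 (SD, n = 3), a change of 0.39 (SE 0.22, limma adjusted p = 0.292), and its other probe sets had changes of -0.12 and -0.35. The same-number differences of the brightest probe set were 0.86, 0.14 and 0.17, and without siPCARNEQ array 1 its change was 0.12. PLXNB1, the SEMA4D receptor, which is mutated in some prostate cancers, had changes of -0.04 (SE 0.10) and -0.03 (SE 0.07), and the interval of the brighter probe set was -0.27 to 0.19. PLXNB2 had a change of 0.31 (SE 0.16, adjusted p = 0.249), and of 0.13 without siPCARNEQ array 1. PLXND1, a receptor of SEMA3E and SEMA3C, had changes of -0.21, -0.14 and -0.05, and PLXNC1 of -0.29 (SE 0.13) in its brightest probe set, 235328_at. The other PLXNC1 probe sets had changes of -0.04 to 0.08. All PLXNC1 group means were 6.89 or lower, under the array median. PLXNA2 and PLXNA4 were below the array median in all 7 of their probe sets, with changes of -0.22 to 0.21.

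NRP1, the co-receptor of several class 3 semaphorins and of VEGFA, was the 1 member with a probe set that fell. 212298_at read 10.43, 10.97 and 10.94 in siPCARNEQ and 11.16, 11.90 and 11.84 in siEGFP, with every siPCARNEQ array lower and array 1 lowest in both groups. It fell by 0.85 (SE 0.23; limma adjusted p = 0.0431, or 0.00206 when blocked by array number), and the same-number differences were -0.74, -0.93 and -0.90. Without any 1 of the arrays other than siEGFP array 1 it did not pass (adjusted p of 0.0615 to 0.151), and without siEGFP array 1 its change was -1.09 (adjusted p = 0.0164).

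The other 3 NRP1 probe sets did not follow it. 210510_s_at had a change of -0.03 (SE 0.22, 95% interval -0.55 to 0.48, limma adjusted p = 0.939), 1561365_at of 0.39 (SE 0.17, adjusted p = 0.173) and 210615_at of 0.09 (SE 0.09). The mean of all 4 had a change of -0.10 (adjusted p = 0.699 over genes). NRP2, the co-receptor for SEMA3F, was measured by 11 probe sets with group means of 6.99 or lower, with changes of -0.26 to 0.14 and none passing.

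**Figure D3:**
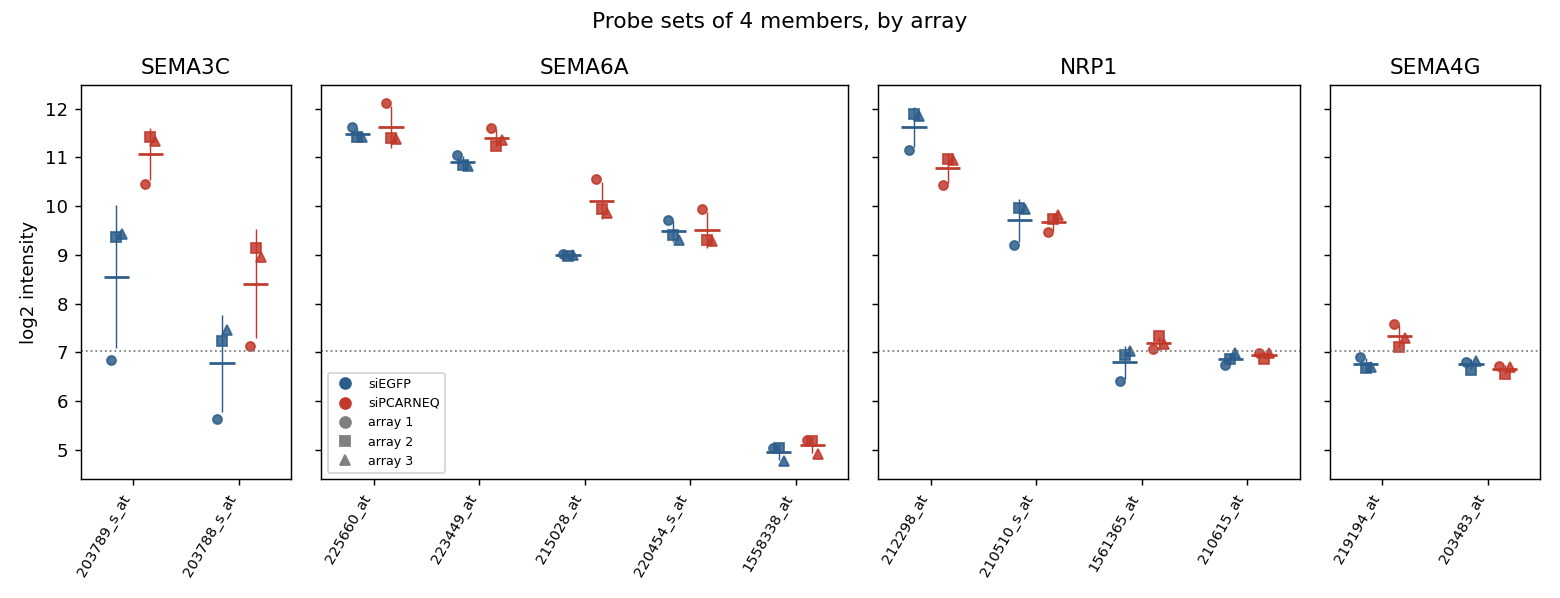
Log2 intensity (y axis) of every probe set of SEMA3C, SEMA6A, NRP1 and SEMA4G on the 6 arrays, with group means and SD (n = 3) and the array median as a dotted line. Both SEMA3C probe sets have a higher mean in siPCARNEQ and are lowest at array 1 in each group, while 1 of 4 NRP1 probe sets fell and 2 of 5 SEMA6A probe sets rose.

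Changes of some textbook ligand and receptor pairs, by the brightest probe set of each gene, are given side by side, with no test of a pair. The pairs were chosen after the values were seen and are not a full list, so they do not show how often ligand and receptor changed together. SEMA3F (0.71) and 1 receptor of its complex, PLXNA3 (0.65), both rose, while NRP2, the other (0.06), did not pass. SEMA3C rose (2.52), beside NRP1, which fell by 0.85, and PLXND1 (-0.21), which did not pass. SEMA4D rose (0.39), beside PLXNB1 (-0.04), and PLXNB3 rose (0.43), beside SEMA5A (-0.15), neither partner passing. In the other pairs chosen no brightest probe set passed, with SEMA7A at -0.10 and PLXNC1 at -0.29, SEMA4C at -0.11 and PLXNB2 at 0.31, SEMA3E at -0.06 and PLXND1 at -0.21, and SEMA6A at 0.14 beside PLXNA2 at 0.15 and PLXNA4 at 0.01.

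The wider pathway was read from lists of genes, each by its brightest probe set. Of 31 cytoplasmic effectors of plexins, 29 were measured, of which 9 rose, 2 fell and 18 did not pass (31.0% and 6.9%, against 13.1% and 10.6% of all genes), and the median change was 0.08. Only 4 of the 29 had a mean not above the array median. In a fit on probe sets above it alone, 18.2% of all rose and 16.7% fell. RRAS, a small GTPase on which the plexin cytoplasmic domain acts, read 9.32, 9.29 and 9.29 in siPCARNEQ and 8.23, 8.22 and 8.31 in siEGFP, groups that were far apart and tight. It rose by 1.05 (SE 0.07, limma adjusted p = 0.000238). MICAL1, an oxidase of actin that binds plexins, rose by 1.48 (SE 0.21, adjusted p = 0.00358), from 7.80, 8.49 and 8.65 to 9.69, 9.80 and 9.87. FARP2, an exchange factor for RAC1 that acts with PLXNA1 and NRP1, rose by 0.60 (SE 0.07, adjusted p = 0.00173). GSK3B, a kinase that phosphorylates collapsin response mediators, fell by 0.97 (SE 0.09, adjusted p = 0.00087), from 11.66, 11.43 and 11.51 to 10.45, 10.56 and 10.67, and RRAS2 fell by 0.35 (SE 0.08, adjusted p = 0.0238). When blocked by array number, 3 effectors fell, DPYSL2 (-0.43, SE 0.21, adjusted p = 0.237) passing there (0.0171).

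**Figure D4:**
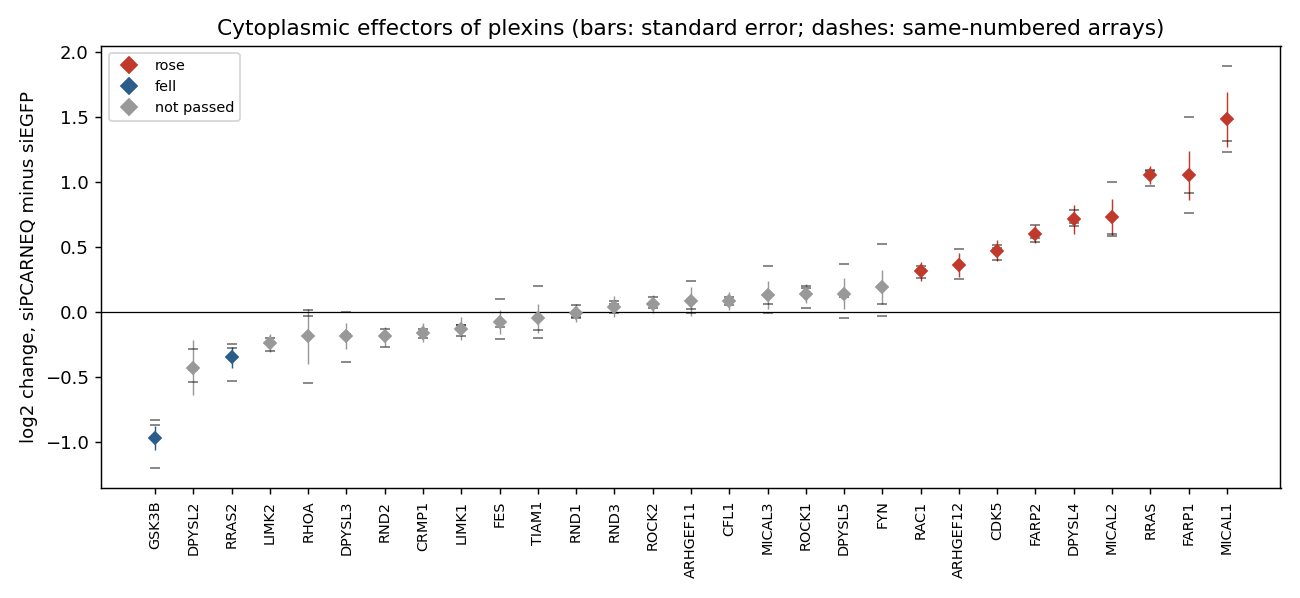
Log2 change (siPCARNEQ minus siEGFP, y axis) of the 29 measured cytoplasmic effectors of plexins, ordered by change. Diamonds are limma estimates with standard errors (n = 3 arrays per group) and dashes the differences between arrays of the same number; MICAL1 is highest at 1.48 and GSK3B lowest at -0.97.

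Of 18 co-receptors and alternative receptors, 17 were measured, of which 2 rose, 0 fell and 15 did not pass (3 were higher and 1 lower at an unadjusted p below 0.05 in limma), with a median of 0.03. The share that rose was 11.8%, beside 13.1% of all genes. ERBB2, a receptor tyrosine kinase that associates with PLXNB1, rose by 0.82 (SE 0.15, adjusted p = 0.00949), from 9.97 to 10.80. NRCAM, an adhesion molecule of semaphorin receptor complexes, rose by 0.45 (SE 0.08, adjusted p = 0.0108), at 5.90 and 6.34, under the array median.

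Markers of several cell types, luminal prostate cells among them, were checked in the same fit, where 13.1% of all genes rose and 10.6% fell. The summed intensity of 6 endothelial markers was 655 to 712 in siPCARNEQ and 654 to 770 in siEGFP, and that of 5 immune markers 435 to 461 and 441 to 472, with 0 of these 11 genes passing in either direction (limma, also 0 at an unadjusted p below 0.05). Of them, 3 endothelial and 4 immune markers had a mean not above the array median, a level not shown to be above background. Of 7 fibroblast and smooth muscle markers, COL1A1 and LUM rose and ACTA2 fell, and their sum was 2440 to 2933 against 1686 to 1711. Of 5 measured neuroendocrine and neuronal markers ENO2 rose, with sums of 4779 to 5808 and 5093 to 5292, and of 3 measured basal markers KRT14 rose, with sums of 260 to 283 and 232 to 252. Of 8 measured luminal prostate markers, 6 rose (75%) and 0 fell, among them TMPRSS2 (1.15, SE 0.13), ACP3 (1.59, SE 0.18) and KLK3 (0.51, SE 0.07). The sum of the 8 was 61096 to 64000 against 38460 to 41992. All 8 had a mean above the array median, and of all such probe sets 18.2% rose in a fit on them alone. When blocked by array number 7 rose, KLK2 (0.46, SE 0.21, limma adjusted p = 0.197) passing there (0.0104). The part of these marker shifts in the members' changes was not tested. In bulk RNA of a cell line, a change in how many cells carry a transcript cannot be told apart from a change per cell.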

How the data were processed

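Total RNA of 3 siPCARNEQ and 3 siEGFP samples of LNCaP cells was measured on single-colour arrays, 1 sample an array. The deposited values are intensity per probe set on a linear scale, made with RMA, as listed without a version in the submitters' processing notes. The median was the same on all 6 arrays, so overall shifts in signal are out of reach. The number of arrays limits precision. Values were taken as log2 with no pseudocount, and 62 of 54675 probe sets, Affymetrix controls, were left out. Of the 54613 tested, 41091 carried 1 gene in the platform annotation, 1801 several and 11721 none, and 0 symbols needed updating through RefSeq gene identifiers. Members and lists use single-gene probe sets, and list genes without one were not analysed here.

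The 2 groups were tested by limma 3.58.1 (lmFit, eBayes; R 4.3.3) over all probe sets, 2-sided, with Benjamini-Hochberg adjustment and a threshold of 0.05, without covariates. The procedure was also run on simulated data with independent noise on every array, which does not cover the shift of array 1 seen here. A gene was read by its probe set with the highest mean over the 6 arrays. The members and lists were chosen with earlier results of these data known. All members are named, with values per array for genes whose brightest probe set passed or that had a passing probe set with an absolute change of at least 1; from each pathway list, the passing genes with the 3 smallest p in each direction, a rule also used for the marker lists. VEGFB, DPYSL2 and KLK2 were named after their values were seen, because the block changes their call, and so was the choice of ligand and receptor pairs. Same-numbered arrays deviated together from their group means (correlations of 0.47, 0.30 and 0.34, each above 0.1, the minimum set for pairing). Deviations within a group cancel out and array 1 stood apart in both groups, so array 1 alone can raise these correlations. Correlations between arrays of different number were not computed, so the values do not establish that arrays 2 and 3 are paired. The labels state no pairing either. A fit blocked by replicate number was among the alternatives, and calls that pass only there rest on that pairing. Promoter sequences are RefSeq's (GRCh38.p14). Figures were drawn with matplotlib 3.10.9.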

Additional observations from a re-analysis of the deposited data

How the results depend on the processing

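The 11 rises and 0 falls of semaphorin probe sets, and the 2 rises and 1 fall of plexin and neuropilin probe sets, depended on which arrays were used. Leaving out 1 array at a time gave 4 to 12 rises and 0 to 1 falls for semaphorins, and 1 to 3 rises and 0 to 1 falls for receptors. In these fits 5.58% to 13.1% of all probe sets rose and 5.08% to 11.2% fell. With arrays 2 and 3 averaged there were 0 rises and 0 falls for semaphorins and 1 rise and 0 falls for receptors (1.99% and 2.16% of all probe sets). With arrays 2 and 3 only, an alternative added after the data were seen, semaphorins had 14 rises and 1 fall and receptors 4 rises and 3 falls, where 16.6% of all probe sets rose and 14.7% fell. With array weights semaphorins had 15 rises and 2 falls and receptors 3 rises and 4 falls, where 17.3% rose and 15.9% fell. Without _x_at and _s_at probe sets, 31 semaphorin probe sets were left and 7 rose, where 9.43% of all rose. Among probe sets above the array median, 1 semaphorin probe set fell, and 18.2% of all rose and 16.7% fell. The replicate number as a block gave 13 and 3 rises and 0 and 1 falls (12.4% and 10.5% of all probe sets), adding SEMA3C 203788_s_at, SEMA4B and PLXNA3 1553139_s_at and losing no member call. A further quantile normalization and a trended robust prior changed no member call.

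The median change of semaphorin genes was -0.02, and -0.04 to 0.02 without 1 array, 0.14 above the array median (15 genes) and 0.05 for means over all probe sets. For receptor genes it was 0.06, and 0.04 to 0.10 without 1 array, 0.31 above the array median (7 genes), -0.03 for means over all probe sets and 0.01 without _x_at and _s_at probe sets. No called member changed sign under any alternative run. The number of arrays, and a mean not above the array median for 47 of the 85 probe sets, limit what could be seen.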

Other observations

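Growth factors that bind neuropilins, and the proteases that cleave class 3 semaphorins, were read in the same fit. Of 5 neuropilin ligands of the vascular endothelial growth factor family, 4 were measured, and 1 rose, 0 fell and 3 did not pass (2 were higher and 0 lower at an unadjusted p below 0.05), where 13.1% of all genes rose and 10.6% fell. VEGFA, the ligand of NRP1 that drives vessel growth, was at 11.37 in siPCARNEQ and 10.98 in siEGFP and rose by 0.39 (SE 0.07, limma adjusted p = 0.00841). VEGFB had a change of 0.27 (SE 0.11, adjusted p = 0.153) and passed when blocked by array number (0.0439), so that 2 of 4 rose there.

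Of 4 proprotein convertases, 1 rose, 0 fell and 3 did not pass (2 were higher and 0 lower at an unadjusted p below 0.05), beside the same 13.1% and 10.6% of all genes. PCSK7 was at 9.93 in siPCARNEQ and 9.55 in siEGFP and rose by 0.38 (SE 0.10, limma adjusted p = 0.035).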
